A study of Homo sapiens with 6 samples.

Results

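The E2 ubiquitin-conjugating enzymes described here are the protein-coding genes whose symbol starts with UBE2 and a further letter. The deposited gene table holds 37 of them among 58735 gene rows, 19951 of which are protein-coding. Their transcripts were compared between Huh7 cells with a short hairpin RNA against TRIM15 (shTRIM15, 3 libraries) and Huh7 cells with a control hairpin (shcontrol, 3 libraries). Huh7 is an established line of human liver cancer cells, and both groups were grown in the same medium with fetal bovine serum. TRIM15 belongs to the tripartite motif proteins, a family of E3 ligases, and the series asks what happens to gene expression in liver cancer cells when it is reduced. The labels do not say how many hairpins were used or whether the 3 libraries of a group came from separate cultures. The p-values therefore measure the spread between these libraries, which may be technical.

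An E2 stands in the middle of the ubiquitin cascade. An E1 enzyme activates ubiquitin, the E2 takes it over onto the cysteine of its active site, and an E3 ligase brings the loaded E2 to the protein to be marked. The E2 often decides which kind of ubiquitin chain is built, and a few E2 enzymes carry small modifiers related to ubiquitin, such as SUMO, NEDD8 or ISG15. RING E3 ligases, the class to which the tripartite motif proteins belong, bind the loaded E2 directly.

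The codon of the active-site cysteine lies in a stretch that is alike in many members of the family. The coding sequences below, from GENCODE 29 transcripts, run from 5′ to 3′ and show this stretch for the 4 UBE2D paralogs and for 4 further genes that were lower in shTRIM15 cells. Capitals mark the cysteine codon, which is codon 85 in the UBE2D genes, 87 in UBE2H and UBE2N, 88 in UBE2B and 92 in UBE2K, counted from the start codon.
UBE2D1: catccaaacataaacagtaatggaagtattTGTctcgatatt
UBE2D2: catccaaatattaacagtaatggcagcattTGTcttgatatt
UBE2D3: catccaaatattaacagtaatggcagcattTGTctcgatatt
UBE2D4: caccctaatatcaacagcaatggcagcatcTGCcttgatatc
UBE2B: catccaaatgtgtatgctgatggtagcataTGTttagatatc
UBE2H: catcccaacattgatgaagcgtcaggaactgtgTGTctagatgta
UBE2K: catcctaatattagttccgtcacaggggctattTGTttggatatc
UBE2N: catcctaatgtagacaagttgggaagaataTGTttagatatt
UBE2D2 and UBE2D3 were the closest of the UBE2D pairs, with 85.8% identity over the first 400 coding bases and a longest identical run of 80 bases in the coding sequence. The other UBE2D pairs were 76.8 to 78.5% identical, with no shared run above 20 bases. The labels do not say how reads that match more than 1 gene were counted, so the values of UBE2D2 and UBE2D3 may share some reads.

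Values are FPKM, fragments scaled by gene length and library size, as the authors deposited them. Whole reads counted back from these values gave 17332508 to 19556855 reads per shTRIM15 library and 17715210 to 18217903 per shcontrol library. Differences were tested with limma on log2(FPKM + 1) over all 14847 genes that reached 0.5 FPKM in at least 3 of the 6 libraries, with Benjamini-Hochberg adjustment over all of them. All log2 fold changes are shTRIM15 over shcontrol on this scale, which understates the change of low genes, and a gene is said to have risen or fallen where its adjusted p was under 0.05. TRIM15 itself averaged 2.62 ± 0.563 FPKM in shTRIM15 libraries and 5.05 ± 0.147 FPKM in shcontrol libraries (SD, n = 3 each), a log2 fold change of -0.75 (SE 0.106, limma adjusted p = 0.00416). A two-sided exact permutation test of its group means returned p = 0.1, and no smaller p can be reached with 3 libraries a group. The hepatocyte markers were all above the filter (12 of 12, with albumin at 928 FPKM in shTRIM15 and 899 FPKM in shcontrol libraries), and 2 of them fell, FGB (-0.22) and TF (-0.09). By limma 0 of them rose. At an unadjusted p under 0.05, and by voom, a test on the whole reads, 3 were higher, albumin among them. By voom, 15.9% of all genes tested were higher and 12.3% lower, and its median log2 fold change over all genes was 0.0234. The share of all genes at an unadjusted p under 0.05 is not given here, so counts at that cut only describe. Of the markers of other cell types, 9 of 9 endothelial markers were below the filter, and 3 of 10 immune and 3 of 10 fibroblast or stellate markers were tested. In each of these 3 lists 1 gene was listed at 0 in all libraries, THY1 of the fibroblast, CDH5 of the endothelial and MS4A1 of the immune markers. The immune list summed to 17.5 to 19.3 FPKM in shTRIM15 and 17.6 to 18.8 FPKM in shcontrol libraries, most of it CD14. The fibroblast markers LUM and COL1A2 fell (log2 fold changes of -0.18 and -0.18), and the fibroblast list summed to 55.7 to 57.9 FPKM in shTRIM15 and 62.6 to 66.2 FPKM in shcontrol libraries. The part of these markers in the E2 results was not tested.

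Of the 37 E2 genes, 31 passed the filter and 6 did not. Among the 31, 9 fell, 1 rose and 21 did not pass the test. The fallen share of 29.03% stands beside 10.1% of all genes tested that fell, and the risen share of 3.23% beside 8.93% of all genes tested that rose. The 31 E2 genes are all protein-coding, with a median level of 17.1 FPKM, while all genes tested include other types and levels down to the filter. Of the protein-coding genes tested, 1401 fell, 1257 rose and 8983 did not pass. The direction was not general in the family, since 16 log2 fold changes lay below 0 and 15 above it, with a median of -0.0049 over the 31 genes and 0.0014 over all genes tested. The median absolute log2 fold change was 0.10 in the E2 genes and 0.0982 over all genes tested. The values of the 2 groups did not overlap in 16 of the 31 E2 genes (51.6%), of which 12 were lower and 4 higher in shTRIM15 libraries, and in 37.8% of all genes tested. The 9 lower genes lie on 7 chromosomes.

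**Figure D1:**
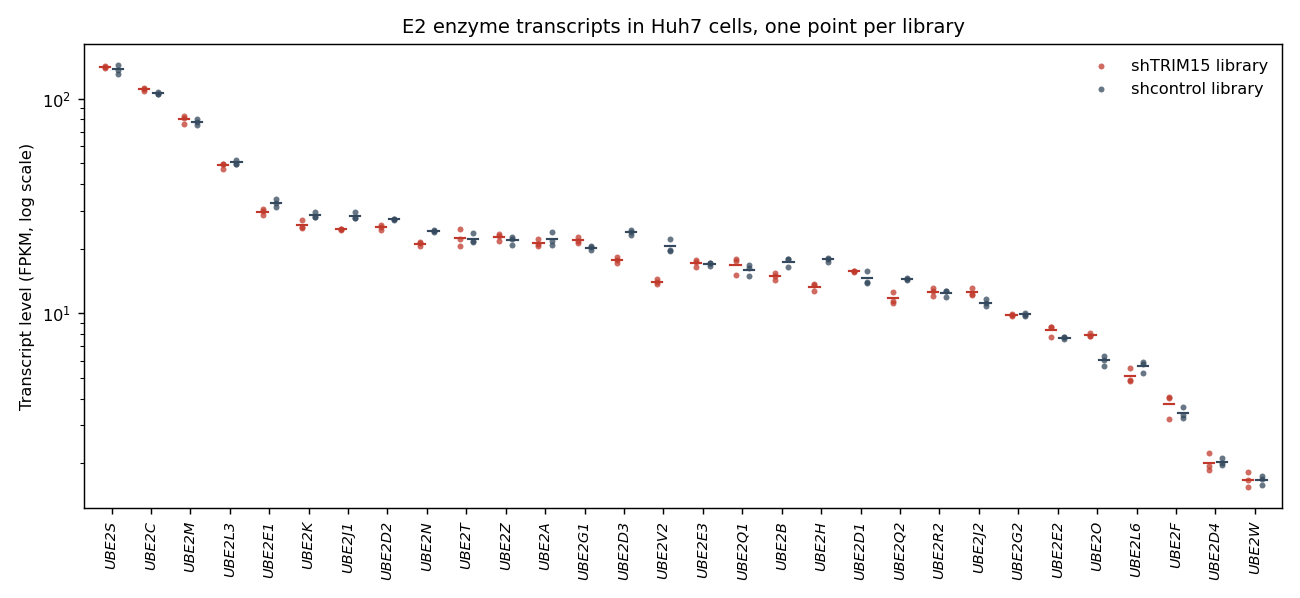
Transcript level of 30 of the 31 tested E2 genes in FPKM on a log axis, ordered by the mean over all 6 libraries. Each point is 1 library (red shTRIM15, dark blue shcontrol) and each dash a group mean. UBE2S and UBE2C are the highest, UBE2W is the lowest, and UBE2V2, UBE2D3 and UBE2H show red points below all dark points.

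**Figure D2:**
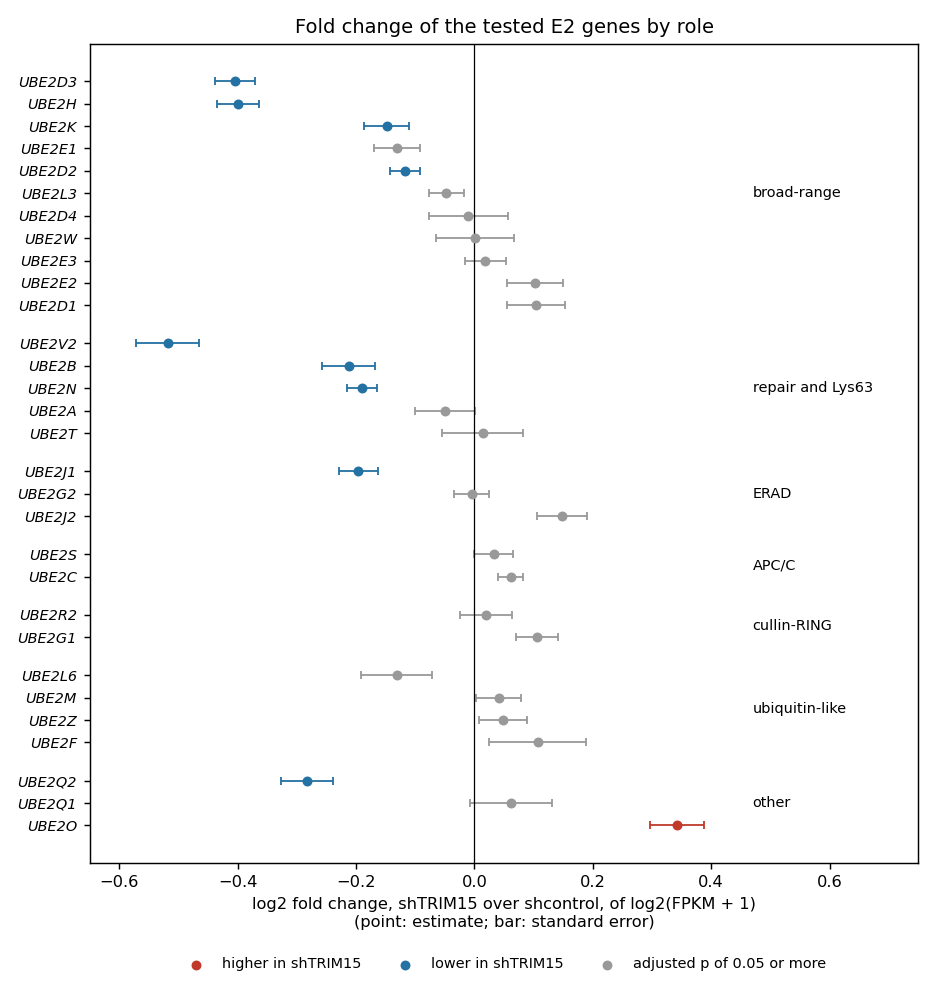
The log2 fold change (shTRIM15 over shcontrol, of log2(FPKM + 1)) with its standard error for 30 of the 31 tested E2 genes, grouped by role. Blue marks the 9 genes that fell, red the 1 that rose (UBE2O) and grey those with an adjusted p of 0.05 or more.

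The group drawn as broad-range holds E2 enzymes that work with many ligases, such as the UBE2D and UBE2E genes, and also the more specialised UBE2H, UBE2K and UBE2W. It had 4 lower and 0 higher of 11 tested (10.1% and 8.93% of all genes tested fell and rose, by limma). No further gene of the group was higher at an unadjusted p under 0.05. The voom test on the whole reads called 1 higher (UBE2D1), beside 15.9% of all genes tested. UBE2D3 (chromosome 4, 102794383 to 102868896 on GRCh38, minus strand) encodes an E2 that starts chains for a wide range of E3 ligases. Its level was 18.3, 17.6 and 17.2 FPKM in the shTRIM15 libraries, against 23.0, 24.4 and 24.0 FPKM in the shcontrol libraries. Every shTRIM15 library lay below every shcontrol library, and the mean was 74.5% of control (log2 fold change -0.41, SE 0.0339, adjusted p = 0.000626). UBE2H (chromosome 7, 129830732 to 129952949, minus strand) is the E2 of the CTLH ligase, which is known for its part in red blood cell maturation. It stood at 13.5, 12.7 and 13.6 FPKM in shTRIM15 libraries, against 17.4, 18.1 and 17.96 FPKM in shcontrol libraries. The groups did not overlap here either, and UBE2H fell to 74.5% of control (-0.40, SE 0.0361, adjusted p = 0.000836).

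UBE2D2, the paralog closest to UBE2D3, fell by less. It had 25.7, 25.3 and 24.5 FPKM in shTRIM15 libraries and 27.5, 27.4 and 27.3 FPKM in shcontrol libraries, without overlap (log2 fold change -0.12, SE 0.0253, adjusted p = 0.0202). UBE2K, an E2 known for building lysine 48-linked chains, had 27.1, 25.1 and 24.9 FPKM in shTRIM15 libraries and 28.2, 28.1 and 29.5 FPKM in shcontrol libraries (-0.15, SE 0.0384, adjusted p = 0.0378). Both falls were small, at 91.9% and 89.9% of control, and both calls were lost without single libraries. For UBE2D2 the adjusted p was 0.059 without shTRIM15 replicate 2, 0.0667 without shTRIM15 replicate 3, 0.0519 without shcontrol replicate 1 and 0.0626 without shcontrol replicate 2. For UBE2K it was 0.111 and 0.115 without shTRIM15 replicates 2 and 3, and 0.0682, 0.0736 and 0.102 without shcontrol replicates 1, 2 and 3.

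The other members of the UBE2D group did not follow. UBE2D1 averaged 15.7 ± 0.150 FPKM in shTRIM15 and 14.5 ± 1.07 FPKM in shcontrol libraries (SD, n = 3 each; adjusted p = 0.199), and UBE2D4 averaged 2.01 ± 0.199 FPKM in shTRIM15 and 2.03 ± 0.0816 FPKM in shcontrol libraries (adjusted p = 0.939). Summed over UBE2D1 to UBE2D4, the level was 60.6 ± 1.198 FPKM in shTRIM15 and 67.8 ± 1.29 FPKM in shcontrol libraries. UBE2D3 made up 29.7, 29.1 and 29% of this sum in the shTRIM15 libraries, against 34.7, 36.0 and 34.7% in the shcontrol libraries. The share of UBE2D1 was 25.1, 26.1 and 26.4% in shTRIM15 libraries and 20.8, 20.7 and 22.8% in shcontrol libraries. UBE2D2 had the highest FPKM of the 4 in each library, and UBE2D3 and UBE2D1 came closer to each other in FPKM in shTRIM15 cells. The order and the size of the shares depend on the gene length used, the summed exons of all transcripts. This length was 10069 bases for UBE2D3 and 3556 bases for UBE2D2. In reads, UBE2D3 was above UBE2D2, with means of 3824.7 and 1713.5 over all libraries.

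**Figure D3:**
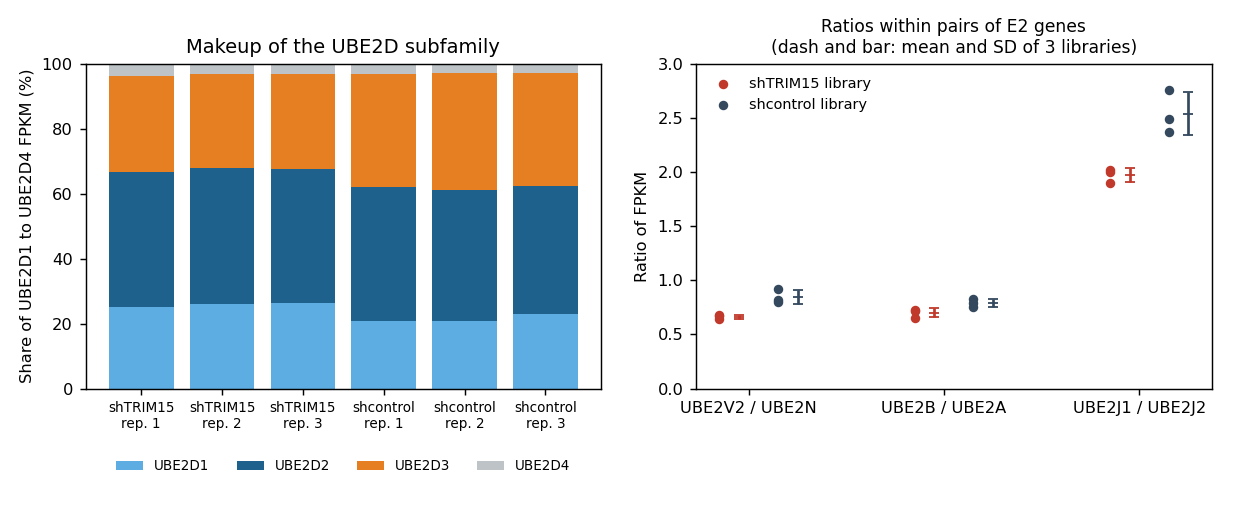
Left, the share of UBE2D1, UBE2D2, UBE2D3 and UBE2D4 in their summed FPKM (percent) in each library, with the shTRIM15 libraries first; the UBE2D3 share is 29 to 29.7% in these and 34.7 to 36.0% in the shcontrol libraries. Right, ratios of FPKM within 3 pairs of E2 genes, with 1 point per library and the mean and SD of 3 libraries beside the points; the shTRIM15 points lie below the shcontrol points in each pair.

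Among the remaining genes of this group, UBE2E1 was next in size. It had 30.6, 28.7 and 29.8 FPKM in shTRIM15 libraries and 32.5, 31.2 and 34.2 FPKM in shcontrol libraries, did not overlap, and missed the threshold (log2 fold change -0.13, SE 0.0396, adjusted p = 0.0617). UBE2E2 and UBE2E3, its paralogs, were at 0.10 and 0.02 (adjusted p = 0.189 and 0.764). UBE2L3, which serves HECT and RING-between-RING ligases such as parkin, had 49.7, 49.5 and 47.2 FPKM in shTRIM15 libraries and 51.9, 49.7 and 49.8 FPKM in shcontrol libraries (-0.05, adjusted p = 0.317). UBE2W, which attaches ubiquitin to protein N termini, was the lowest tested member at 1.68 FPKM over all libraries (0.0011, adjusted p = 0.993).

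The E2 genes of DNA damage tolerance and lysine 63-linked chains had 3 lower and 0 higher of 5 tested (10.1% and 8.93% of all genes tested fell and rose). At an unadjusted p under 0.05, or by voom, 0 were higher (15.9% of all genes tested were higher by voom). UBE2N is the catalytic E2 for lysine 63-linked chains, and UBE2V2 and UBE2V1 encode its partner subunits, which resemble an E2 but lack the active-site cysteine. UBE2V2 (chromosome 8, 48008400 to 48064708, plus strand) had the largest fold change of the 31 genes. Its level was 14.4, 13.6 and 13.9 FPKM in shTRIM15 libraries, against 19.6, 19.6 and 22.3 FPKM in shcontrol libraries. The groups were far apart relative to their spread, and UBE2V2 fell to 68.2% of control (log2 fold change -0.52, SE 0.0529, adjusted p = 0.00126). UBE2N (chromosome 12, 93405673 to 93442262, minus strand) had 21.3, 21.4 and 20.6 FPKM in shTRIM15 libraries and 24.0, 24.5 and 24.2 FPKM in shcontrol libraries, again without overlap (-0.19, SE 0.0252, adjusted p = 0.0034). The ratio of UBE2V2 to UBE2N FPKM was 0.662 ± 0.0211 in shTRIM15 and 0.846 ± 0.0650 in shcontrol libraries (SD, n = 3 each), so the value of UBE2V2 fell by more than that of UBE2N. The UBE2N value in this ratio carries the limit given next.

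UBE2N shares 39.5% of its exonic bases with NUDT4 on the opposite strand. NUDT4 was at 11.4 ± 0.459 FPKM in shTRIM15 and 11.8 ± 0.443 FPKM in shcontrol libraries (SD, n = 3 each; limma adjusted p = 0.518). The library kit marks strand per the labels, but no label says whether strand was used in counting, and the part of NUDT4 reads in the UBE2N values was not tested. The same limit holds for UBE2A, with 18.1% of exonic bases shared on the opposite strand, UBE2D4 (15.5%), UBE2E3 (9.79%) and UBE2L3 (5.32%). UBE2F shares 16.2% with UBE2F-SCLY on the same strand.

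UBE2A and UBE2B are the close paralogs that pair with RAD18 and with the RNF20-RNF40 ligase of histone H2B, and their coding sequences are 81.0% identical over the first 400 bases. UBE2B had 15.3, 14.3 and 14.9 FPKM in shTRIM15 libraries and 16.3, 17.9 and 17.9 FPKM in shcontrol libraries (log2 fold change -0.21, SE 0.0443, adjusted p = 0.0179). UBE2B fell to 85.5% of control without overlap of the groups, but the adjusted p was 0.0597 and 0.0567 without shTRIM15 replicates 2 and 3, and 0.0613 and 0.0567 without shcontrol replicates 2 and 3. UBE2A overlapped between the groups at 21.3 ± 0.713 FPKM in shTRIM15 and 22.1 ± 1.54 FPKM in shcontrol libraries (SD, n = 3 each; adjusted p = 0.564). UBE2T, the E2 of the Fanconi anaemia pathway, overlapped as well, at 22.5 ± 2.09 FPKM in shTRIM15 and 22.2 ± 1.21 FPKM in shcontrol libraries (adjusted p = 0.918).

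Of the 3 E2 genes of endoplasmic reticulum-associated degradation, the route by which misfolded proteins leave the endoplasmic reticulum for the proteasome, 1 fell and 0 rose by limma (10.1% and 8.93% of all genes tested). UBE2J2 was higher at an unadjusted p under 0.05 and by voom, which called 15.9% of all genes tested higher. UBE2J1 (chromosome 6, 89326625 to 89352848, minus strand) is anchored in the reticulum membrane. It had 24.7, 24.8 and 24.3 FPKM in shTRIM15 libraries, against 27.6, 27.7 and 29.7 FPKM in shcontrol libraries (log2 fold change -0.20, SE 0.0332, adjusted p = 0.00836). UBE2J2, the second membrane-anchored E2, lay on the other side of 0, at 12.5 ± 0.496 FPKM in shTRIM15 and 11.2 ± 0.465 FPKM in shcontrol libraries (SD, n = 3 each; 0.15, SE 0.0421, adjusted p = 0.0525). The groups of UBE2J2 did not overlap, and the ratio of UBE2J1 to UBE2J2 FPKM was 1.97 ± 0.0668 in shTRIM15 and 2.54 ± 0.2003 in shcontrol libraries. UBE2G2, the soluble E2 of this pathway, was at 9.83 ± 0.119 FPKM in shTRIM15 and 9.87 ± 0.168 FPKM in shcontrol libraries (-0.0049, adjusted p = 0.933).

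UBE2O was the single E2 gene that rose. It encodes an unusually large enzyme that acts as E2 and E3 in 1 chain and is known for clearing ribosomal proteins during red blood cell maturation. UBE2O (chromosome 17, 76389451 to 76453206, minus strand) had 7.80, 7.84 and 8.11 FPKM in shTRIM15 libraries, against 5.68, 6.08 and 6.35 FPKM in shcontrol libraries. Each shTRIM15 library was above each shcontrol library, and the mean was 131% of control (log2 fold change 0.34, SE 0.0450, adjusted p = 0.00332). UBE2Q2, a less studied E2 with an extended N terminus, fell to 81.1% of control, with 12.6, 11.2 and 11.4 FPKM in shTRIM15 libraries and 14.3, 14.5 and 14.7 FPKM in shcontrol libraries (-0.28, SE 0.0445, adjusted p = 0.00638). Its paralog UBE2Q1 averaged 16.8 ± 1.52 FPKM in shTRIM15 and 16.0 ± 0.927 FPKM in shcontrol libraries (SD, n = 3 each; adjusted p = 0.598).

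The 2 E2 transcripts with the highest FPKM, UBE2S and UBE2C, encode the E2 enzymes of the anaphase-promoting complex, UBE2C to start chains and UBE2S to extend them in mitosis. UBE2S had 140.0, 142 and 138 FPKM in shTRIM15 libraries and 143, 136 and 131 FPKM in shcontrol libraries, with overlap (log2 fold change 0.03, SE 0.0331, adjusted p = 0.563). UBE2C had 113, 108 and 110.4 FPKM in shTRIM15 libraries and 107, 105.3 and 105.1 FPKM in shcontrol libraries, without overlap and short of the threshold (0.06, SE 0.0209, adjusted p = 0.0886). At an unadjusted p under 0.05, UBE2C was higher, and voom called 0 of the 2 (15.9% of all genes tested were higher and 12.3% lower by voom). Together they made up 31.5 ± 0.333% of the summed E2 FPKM in shTRIM15 and 29.7 ± 0.850% in shcontrol libraries (SD, n = 3 each), and that sum was 795 ± 14.5 FPKM in shTRIM15 and 817 ± 2.81 FPKM in shcontrol libraries. In the same libraries, 11 of 18 cell cycle genes fell and 1 rose by limma (10.1% and 8.93% of all genes tested), among them CCNA2 (-0.39), CDK1 (-0.31) and PLK1 (-0.29), while BIRC5 rose (0.24). The list summed to 887 to 897 FPKM in shTRIM15 and 998 to 1009 FPKM in shcontrol libraries. In a bulk sample, a change in the share of dividing cells and a change of transcript per cell cannot be told apart, and the part of the cell cycle genes in the E2 values was not tested.

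The E2 enzymes of cullin ligases and of ubiquitin-like modifiers had 0 genes past the threshold of 2 and of 5 tested by limma. Over all genes tested, 10.1% fell and 8.93% rose, so sets this small may well hold none. At an unadjusted p under 0.05, UBE2G1 was higher and 1 of the 5 was lower. The voom test called UBE2G1 alone of the 7, as higher, beside 15.9% higher and 12.3% lower over all genes tested. UBE2M, which loads NEDD8 onto cullins with RBX1, was the highest of them in FPKM. It had 83.3, 80.9 and 76.3 FPKM in shTRIM15 libraries and 78.2, 80.2 and 75.2 FPKM in shcontrol libraries, with overlap (log2 fold change 0.04, adjusted p = 0.523). UBE2F, the second NEDD8 E2, was at 3.77 ± 0.483 FPKM in shTRIM15 and 3.42 ± 0.195 FPKM in shcontrol libraries (SD, n = 3 each; adjusted p = 0.427). UBE2L6, the E2 of the interferon-induced modifier ISG15, was at 5.09 ± 0.386 FPKM in shTRIM15 and 5.66 ± 0.327 FPKM in shcontrol libraries (adjusted p = 0.186). UBE2Z, which works with the E1 UBA6, was at 0.05 (adjusted p = 0.47). Of the cullin-ligase enzymes, UBE2G1 was at 0.11 (SE 0.0351, adjusted p = 0.0824) and UBE2R2 at 0.02 (adjusted p = 0.81).

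The 6 E2 genes below the filter were UBE2V1, UBE2F-SCLY, UBE2L5, UBE2Q2L, UBE2QL1 and UBE2U. UBE2V1 had 29 to 50 reads per library and 0.319 to 0.485 FPKM in shTRIM15 and 0.332 to 0.574 FPKM in shcontrol libraries. Its exons overlap those of the joint transcript TMEM189-UBE2V1 on the same strand over 42.9% of their length, and TMEM189-UBE2V1 was listed at 0 in 5 libraries and at 1 read in the sixth. No label says how reads that lie in both genes were counted, so the low value of UBE2V1 is no measure of how much of its transcript was present. UBE2F-SCLY, a joint transcript of UBE2F and SCLY, shares 93.9% of its exonic bases with these neighbours and had at most 8 reads in a library. UBE2L5 and UBE2Q2L had at most 2 and 3 reads in a library, and UBE2QL1 at most 5. UBE2U had 0 reads in all 6 libraries, which allows a level of up to 0.0826 to 0.0930 FPKM per library (3 reads, counting error only).

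Genes that work with these enzymes were taken as 8 lists with 148 distinct genes, 143 of them tested. Of these, 26 fell and 10 rose, which is to be read beside the 10.1% and 8.93% of all genes tested, and the median log2 fold change was -0.03. The E1 enzymes and modifiers had 3 lower and 0 higher of 20 tested by limma. At an unadjusted p under 0.05, 4 were higher, and by voom 3, where voom called 15.9% of all genes tested higher. UBA3, the catalytic subunit of the NEDD8-activating enzyme, fell to 7.76 ± 0.150 FPKM in shTRIM15 libraries, against 10.3 ± 0.387 FPKM in shcontrol libraries (SD, n = 3 each; -0.37, SE 0.0371, adjusted p = 0.00117). The SUMO E1 subunit UBA2 (-0.11) fell too. The call of UBA2 was lost without shTRIM15 replicate 1 or 3 (adjusted p = 0.0564 and 0.0574). UBA1, the main E1 of ubiquitin, was at -0.01 (adjusted p = 0.813). E2 enzymes outside the UBE2 name had 1 lower and 0 higher of 8, with CDC34 higher at an unadjusted p under 0.05 and by voom, beside the same voom share. The lower gene was UEVLD, an E2 variant without an active site (-0.43, SE 0.0373, adjusted p = 0.000734), while CDC34, the main E2 of cullin ligases, averaged 88.3 ± 0.596 FPKM in shTRIM15 and 82.6 ± 4.14 FPKM in shcontrol libraries (adjusted p = 0.111).

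The anaphase-promoting complex and its regulators had 5 lower and 0 higher of 18 tested by limma, beside 10.1% and 8.93% of all genes tested. At an unadjusted p under 0.05 and by voom, 2 were higher (ANAPC2 and FZR1), where voom called 15.9% of all genes tested higher. The lower genes included the subunits ANAPC13 (log2 fold change -0.26, SE 0.0250, adjusted p = 0.00103), CDC23 (-0.22) and CDC26 (-0.16), and the checkpoint protein MAD2L1 (-0.20). CDC26 was not called with voom on whole reads (adjusted p = 0.196). Cullins and neddylation factors had 4 lower and 2 higher of 20, beside the same shares. DCUN1D4, which helps UBE2M and UBE2F to modify cullins, fell (-0.34, SE 0.0309, adjusted p = 0.000899), as did CUL2 (-0.19) and DCUN1D5 (-0.17). RNF7, the RING partner of UBE2F, rose (0.17, adjusted p = 0.042). The call of DCUN1D5 was lost without shTRIM15 replicate 1 or 2 (adjusted p = 0.0533 and 0.0524), and that of RNF7 without each library other than shcontrol replicate 1 (0.0729 to 0.123).

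Factors of endoplasmic reticulum-associated degradation had 3 lower and 1 higher of 19, beside 10.1% and 8.93% of all genes tested. EDEM1, which hands misfolded glycoproteins to the pathway, fell to 10.1 ± 0.0341 FPKM in shTRIM15 libraries, against 14.5 ± 0.691 FPKM in shcontrol libraries (SD, n = 3 each; log2 fold change -0.48, SE 0.0385, adjusted p = 0.000565). FAF2, a recruiter of the VCP segregase, fell (-0.25), DERL1, a membrane channel component, fell (-0.22), and the ligase RNF185 rose (0.14). The call of DERL1 was lost without shTRIM15 replicate 1 or 3 (adjusted p = 0.0769 and 0.0838) and without shcontrol replicate 1, 2 or 3 (0.0556, 0.0698 and 0.0917), and that of RNF185 without shTRIM15 replicate 1 or 2 or shcontrol replicate 2 (0.0595, 0.0586 and 0.0568). E3 ligases and targets of lysine 63-linked chains and DNA repair had 4 lower and 1 higher of 23, beside the same shares. FANCL, the ligase that uses UBE2T, was at -0.21, RAD18, the ligase that uses UBE2A and UBE2B, at -0.21, RNF40 at -0.18 (adjusted p = 0.00662) and HLTF at -0.17. The call of FANCL was lost without shTRIM15 replicate 1 or 3 (adjusted p = 0.0518 and 0.0531). The call of HLTF was lost without shTRIM15 replicate 2 or 3 or shcontrol replicate 3 (0.0568, 0.0594 and 0.0573), and that of RAD18 without each library other than shcontrol replicate 1 (0.0606 to 0.124). SUMO ligases and proteases had 1 lower, RANBP2 (-0.23), and 1 higher, NSMCE2 (0.19), of 16, again beside these shares. NSMCE2 was not called without any 1 library other than shTRIM15 replicate 3 (0.0595 to 0.128).

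The ligases that work with UBE2H and UBE2L3 had 5 lower and 5 higher of 19 tested. Over all genes tested, 10.1% fell and 8.93% rose. Within the CTLH ligase of UBE2H, the paralogs named below changed in opposite directions. Of 11 CTLH genes tested, 4 fell and 3 rose by limma. RMND5A, a RING subunit, fell to 6.16, 6.55 and 6.87 FPKM in shTRIM15 libraries, against 8.71, 8.24 and 8.55 FPKM in shcontrol libraries (log2 fold change -0.34, SE 0.0451, adjusted p = 0.00348). Its paralog RMND5B, picked with its value known, had 8.21, 8.39 and 8.80 FPKM in shTRIM15 libraries and 7.42, 7.43 and 6.97 FPKM in shcontrol libraries (0.19, SE 0.0409, adjusted p = 0.0189). RMND5A was above RMND5B in each shcontrol library and below it in each shTRIM15 library. The scaffold gene RANBP9 had 9.69, 11.6 and 10.8 FPKM in shTRIM15 libraries and 12.2, 12.9 and 12.8 FPKM in shcontrol libraries (-0.23, adjusted p = 0.0449). Its paralog RANBP10 had 10.7, 10.7 and 10.3 FPKM in shTRIM15 libraries and 9.28, 8.80 and 9.10 FPKM in shcontrol libraries (0.20, adjusted p = 0.00822). ARMC8, a further scaffold subunit, fell (-0.41, SE 0.0581, adjusted p = 0.00417). The call of RMND5B was lost without shTRIM15 replicate 2 or 3 or shcontrol replicate 3 (adjusted p = 0.0536, 0.0653 and 0.0522), and that of RANBP9 without each library other than shTRIM15 replicate 2 (0.0691 to 0.12).

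**Figure D4:**
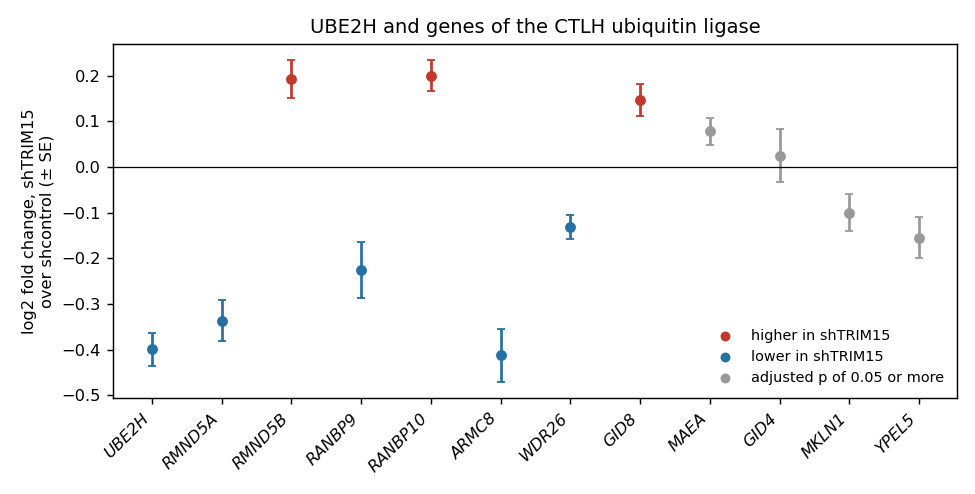
The log2 fold change (shTRIM15 over shcontrol) with its standard error for UBE2H and 11 genes of the CTLH ligase. Blue points fell, red points rose and grey points had an adjusted p of 0.05 or more. RMND5A and RANBP9 lie below 0 and their paralogs RMND5B and RANBP10 above it.

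Several of these partner genes share exonic bases with a gene on the opposite strand, where the same limit on strand in counting holds. The overlap was 47.2% for RNF40, 19.7% for FANCL, 17.7% for CDC26, 12.97% for ANAPC13, 10.4% for RANBP9 and 10.2% for RNF185. It was 9.66% for EDEM1, 7.22% for DERL1, 5.42% for NSMCE2 and 5.38% for RMND5B. Of the cell cycle genes named above, PLK1 shared 12.5% and CCNA2 9.08%. The part of this overlap in their values was not tested.

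The 3′ untranslated regions of the 9 lower E2 genes varied in length. In the principal GENCODE transcript this region had a median of 3054 bases (1328 to 4358) in the 9 lower genes, 1492 bases in UBE2O and 1861 bases (178 to 7882) in the 21 E2 genes that did not pass the test. Over all protein-coding genes tested the medians were 1779 bases in the 1401 that fell, 920 bases in the 1257 that rose and 1005 bases in the 8983 that did not pass. Its GC content had a median of 34.8% in the lower E2 genes (33.0 to 43.7%), 53.8% in UBE2O and 43.8% (27.0 to 61.1%) in the rest, against 35.7%, 50.5% and 42.2% in all protein-coding genes that fell, rose or did not pass. Of the 9 lower genes, 4 (UBE2D3 with 1328, UBE2Q2 with 1620, UBE2D2 with 1632 and UBE2B with 1639 bases) were below the median of the E2 genes that did not pass. The remaining lower genes were UBE2K with 4358 bases (log2 fold change -0.15), UBE2N with 4349 (-0.19), UBE2H with 4205 (-0.40), UBE2V2 with 3880 (-0.52) and UBE2J1 with 3054 (-0.20). The part of length or GC content in these changes was not tested.

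The promoters of UBE2D3, 1 of the genes that fell most, and of UBE2O, the gene that rose, are shown for comparison. The windows come from RefSeq on GRCh38.p14 and run 5′ to 3′ on the gene's strand, from 250 bases before the start to 50 after it, at chr4:102868846-102869145 (minus strand) for UBE2D3 and chr17:76453103-76453402 (minus strand) for UBE2O. Capitals mark matches, on either strand, to the 3 motifs searched. The CCAAT box reads ATTGG on the other strand. The GC box GGGCGG reads CCGCCC there. The third motif, TTTGAA, reads TTCAAA there.
UBE2D3: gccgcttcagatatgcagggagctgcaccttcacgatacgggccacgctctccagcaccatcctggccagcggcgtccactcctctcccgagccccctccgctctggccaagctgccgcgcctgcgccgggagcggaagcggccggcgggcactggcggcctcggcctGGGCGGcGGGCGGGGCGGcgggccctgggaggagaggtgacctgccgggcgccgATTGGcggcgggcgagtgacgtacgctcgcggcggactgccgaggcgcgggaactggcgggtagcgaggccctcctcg
UBE2O: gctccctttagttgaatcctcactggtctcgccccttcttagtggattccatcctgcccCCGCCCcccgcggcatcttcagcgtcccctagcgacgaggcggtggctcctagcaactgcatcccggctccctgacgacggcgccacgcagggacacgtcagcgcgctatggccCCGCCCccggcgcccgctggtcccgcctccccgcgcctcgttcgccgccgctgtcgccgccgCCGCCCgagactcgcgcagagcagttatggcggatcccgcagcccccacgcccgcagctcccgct
The UBE2D3 window held 4 matches, 3 of them GGGCGG, of which 2 overlap in part, and the UBE2O window 3, all of them CCGCCC. Promoters were matched for 28 of the 37 E2 genes, among them UBE2F-SCLY, UBE2QL1, UBE2U and UBE2V1, which were not tested. GGGCGG was present in 24 of these 28, including 6 of 6 lower genes and UBE2O, and in 70.8% of the 9677 promoters of genes tested (44.6% of all 27305 promoters). CCAAT was present in 9 of 28, 2 of them lower and 5 tested but not called. It was present in 36.9% of the promoters of genes tested and in 35.7% of all promoters. TTTGAA was present in 4 of 28, of which UBE2F and UBE2T were tested and not called, while UBE2F-SCLY and UBE2U were not tested. It was present in 9.53% of the promoters of genes tested and in 15.4% of all promoters. The promoters of UBE2B, UBE2H and UBE2V2 were not among those matched, so nothing is said of the motif in these 3 lower genes.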

How the data were processed

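RNA sequencing of 6 Huh7 libraries (3 shTRIM15, 3 shcontrol, grouped by their titles) was available as 1 deposited table of FPKM values computed by the authors, with 1 column per library. The aligner, the counting step and the use of strand are not given in the sources used here. The labels list the mouse build mm10, but all 58735 rows have the identifiers, coordinates and strands of the human annotation GENCODE 29 (GRCh38), and the gene length column equals the summed exon length in all 37 E2 genes. Multiplied by gene length and divided by the worth of 1 read in its library, 100% of values came out whole (tolerance 0.01 reads), which gave back the reads.

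Values were tested as log2(FPKM + 1) with limma 3.58.1 in R 4.3.3 (mean-variance trend, two-sided, Benjamini-Hochberg adjustment over 14847 genes with at least 0.5 FPKM in 3 or more libraries, threshold 0.05). The procedure was tested on simulated data. Alternatives were pseudocounts of 0.1 and 0.5, no filter and a filter of 1 FPKM, median-ratio and quantile scaling, no variance trend, robust hyperparameters, limma voom on whole reads, replicate number as a block, and each library left out in turn. The voom test stands in for a count test. It took the summed reads as library size, without further scaling. The library sizes implied by the FPKM differed from these by 1.04 to 1.27% in shTRIM15 and by -0.370 to -0.359% in shcontrol libraries. Over all genes tested, the median log2 fold change was 0.0234 by voom and 0.0014 in the main test. Genes called higher by voom carry this shift.

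Described in full are E2 genes past the threshold and the 5 with the highest mean FPKM, and of each list up to 4 genes past the threshold with the largest log2 fold change. RMND5B, genes named beside counts by unadjusted p or voom, and genes named only for background were picked after their values were seen. The E2 genes and lists were chosen with earlier results of these data known. Values of 1 tested E2 gene and of some list genes are not reported here. Intervals and floors cover counting error only. Replicates of a group differed by 1.87 to 2.57 times sampling noise.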

Additional observations from a re-analysis of the deposited data

How the results depend on the processing

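Of the 10 E2 calls, 7 kept their direction and their side of the threshold under all 16 alternatives (UBE2V2, UBE2D3, UBE2H, UBE2Q2, UBE2J1, UBE2N and UBE2O), and the other 3 (UBE2B, UBE2D2 and UBE2K) kept their direction. Without a filter the adjusted p of UBE2K was 0.0948, and without a variance trend it was 0.0838 for UBE2K and 0.0626 for UBE2D2. UBE2D1 passed without shcontrol replicate 3 (0.0208) and UBE2E1, which voom added to the lower genes, without shcontrol replicate 2 (0.0476). The TRIM15 log2 fold change ranged from -0.95 to -0.65 and stayed past the threshold. The number of E2 genes that rose was 2 with a filter of 1 FPKM (UBE2J2 added) and 4 with voom on whole reads (UBE2D1, UBE2G1 and UBE2J2 added, with 10 lower), and it ranged from 1 to 2 when 1 library was left out, while 6 to 9 fell. Pathway genes that rose numbered 6 with no filter, 16 with a filter of 1 FPKM, 6 without a variance trend and 22 with voom, and 5 to 10 when 1 library was left out, with 16 to 23 lower. Over all genes, voom gave 2360 higher and 1826 lower, and leaving out 1 library gave 792 to 1115 higher and 978 to 1224 lower.

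Samples with the same replicate number hardly deviated together (r of 0.0086 to 0.0133 across genes, which are not independent replicates). The main test did not pair the samples by number. With replicate number as a block, 883 genes were higher and 1030 lower, 6 pathway genes were higher, and 6 E2 genes were lower and 1 higher. Every library correlated best with its own number, a hint from the data and not from the design.

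The values of 7 E2 genes near 0 changed sign. UBE2G2 was at 0.0046 under quantile scaling and 0.0159 with voom, and UBE2D4 at 0.0039 with voom. With 1 library left out, UBE2G2 ranged from -0.0144 to 0.0073, UBE2D4 from -0.0629 to 0.0273, UBE2T from -0.0535 to 0.0735, UBE2E3 from -0.0043 to 0.0482, UBE2R2 from -0.0112 to 0.0535, UBE2W from -0.0347 to 0.0369 and UBE2A from -0.0911 to 0.0024. The cause was not tested. With 161 to 7800 reads per library behind the tested E2 genes, depth limits the lowest of them most.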

Other observations

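The table also holds 46 pseudogenes of the UBE2 family, 15 of them of UBE2V1 and 10 of UBE2Q2. Of these, 23 were listed at 0 in all 6 libraries and 10 passed the filter. Of the 10, 2 genes, both copies of UBE2S on chromosome 17, passed the threshold, in opposite directions, a share close to the 19.0% of all genes tested that passed it. UBE2SP1 was at 2.55 ± 0.2203 FPKM in shTRIM15 and 3.71 ± 0.407 FPKM in shcontrol libraries (SD, n = 3 each; log2 fold change -0.41, limma adjusted p = 0.0138), and UBE2SP2 at 2.22 ± 0.1696 FPKM in shTRIM15 and 1.57 ± 0.179 FPKM in shcontrol libraries (0.33, adjusted p = 0.0253). Few reads lay behind these values, 27 to 50 per library for UBE2SP1 and 13 to 23 for UBE2SP2. UBE2FP1 was at 7.43 FPKM in shTRIM15 and 5.77 FPKM in shcontrol libraries (limma adjusted p = 0.121). Its parent gene UBE2F was lower in FPKM, at 3.77 FPKM in shTRIM15 and 3.42 FPKM in shcontrol libraries. In reads the order was the other way, with means over all libraries of 54.5 for UBE2FP1 and 279.5 for UBE2F, since FPKM divides by gene length. No label says how reads shared between a gene and its copies were counted, so these values and those of the parent genes are uncertain to that extent.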
